A study of Mus musculus with 8 samples.

Results

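The semaphorins, plexins, neuropilins, netrins, Unc5 receptors, Slits and Robos, the classical families of secreted and membrane-bound guidance cues and their receptors, were examined in glomerular RNA of mice with and without *Cd151*. *Cd151* encodes a tetraspanin that associates with laminin-binding integrins at the foot of the podocyte, and the study asked which transcripts differ in glomeruli early in the disease of mice that lack it. Members were the probes whose gene symbol begins with Sema and a digit, Plxn and a letter from a to d, or Ntn and a digit or g, or is a neuropilin, Unc5a to Unc5d, Slit1 to Slit3, Robo1 to Robo4 or Dcc. This gave 68 of the 25697 probes and 43 of the 18120 gene symbols of the array table. No probe carried the symbol *Dcc*, *Nrp1*, *Robo3*, *Plxnb2* or *Sema4c*, so these genes were not examined. All mice were male, of the FVB/N strain and 3 weeks of age: 4 were *Cd151*+/+ and 4 were *Cd151*-/- and each mouse was hybridised to 1 Illumina MouseRef-8 v1.1 array. The glomeruli had been collected on a magnet after perfusion of the animal with magnetic beads, so that RNA of podocytes, endothelium, mesangium and any attached tubule was read together. In such bulk samples, fewer cells of a type and less RNA per cell cannot be told apart.

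Guidance cues were first described in the growth cone, the moving tip of a nerve fibre, which they attract or repel. Semaphorins act through plexins, the secreted class 3 members mostly with a neuropilin as co-receptor, netrins act through Dcc and the Unc5 receptors, and Slits act through Robos. The receptors converge on small GTPases and the actin cytoskeleton. In the kidney the same genes take part in ureteric budding, in the patterning of vessels and in the shape of podocyte foot processes, and netrin 4 is also a component of basement membranes that binds laminin.

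Levels are normalised log2 signals, that is, background-corrected and quantile-normalised brightness, on which 1 unit is a doubling. They can be compared between mice for 1 probe and not between probes. For *Cd151* itself, all 3 probes were above background in each *Cd151*+/+ mouse and in 0 *Cd151*-/- mice, where they were at least 523-, 99.9- and 87.8-fold lower (adjusted p = 6.51e-10, 2.89e-08 and 2.97e-07, limma with Benjamini-Hochberg adjustment), the bound being set by the lowest signal detected on each array. Between 11291 and 12359 probes were detected per array, whose median brightness was 3.02 to 4.56 times that of the background. By background the arrays formed a lower set (*Cd151*+/+ mice 1 and 2, *Cd151*-/- mice 3 and 4) and a higher set (*Cd151*+/+ mice 3 and 4, *Cd151*-/- mice 1 and 2). Both sets hold both genotypes, and differences within each are given for *Ntn4*, *Ntng2*, *Sema7a*, *Sema3b* and some other genes. The glomerular label was matched by podocyte markers: *Podxl* and *Wt1* were detected on all 8 arrays.

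The 3 guidance genes whose probes gave an unadjusted p below 0.05 were *Ntn4*, *Ntng2* and *Sema7a*. Their promoter sequence, the 250 bases before the transcript start in RefSeq (GRCm38.p6), is shown because they had the lowest unadjusted p of the list, though none passed adjustment. Capitals mark the GC box, GGGCGG on either strand, to which Sp1-type factors bind.
Ntn4, chr10:93640799-93641048, plus strand: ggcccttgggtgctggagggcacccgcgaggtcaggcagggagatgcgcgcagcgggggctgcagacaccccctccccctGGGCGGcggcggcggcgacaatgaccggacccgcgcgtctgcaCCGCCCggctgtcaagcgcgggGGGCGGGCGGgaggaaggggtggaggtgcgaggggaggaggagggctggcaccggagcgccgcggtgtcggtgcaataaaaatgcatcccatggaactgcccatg
Ntng2, chr2:29248100-29248349, minus strand: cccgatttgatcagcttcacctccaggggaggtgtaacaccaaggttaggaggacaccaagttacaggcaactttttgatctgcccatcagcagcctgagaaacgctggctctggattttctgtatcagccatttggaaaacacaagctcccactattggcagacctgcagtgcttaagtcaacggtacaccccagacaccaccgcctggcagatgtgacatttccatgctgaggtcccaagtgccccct
Sema7a, chr9:57939862-57940111, plus strand: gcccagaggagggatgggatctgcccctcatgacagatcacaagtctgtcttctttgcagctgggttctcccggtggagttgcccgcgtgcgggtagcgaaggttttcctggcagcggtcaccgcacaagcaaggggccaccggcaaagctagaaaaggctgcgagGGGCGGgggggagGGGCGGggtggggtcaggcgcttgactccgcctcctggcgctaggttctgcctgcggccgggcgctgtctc
The *Ntn4* window held 4 GC boxes, of which the last pair overlap, the *Sema7a* window held 2 and the *Ntng2* window 0. A GC box was present in 32.7% of the 32851 promoter windows of that length in the table. Of the other motifs searched on both strands, the AP-1 site (TGANTCA, in 6.7% of windows) and the TATA box (TATAAA, in 12.4%) were in none of the 3 windows. G and C made up 73.2% of the *Ntn4* window, 52.4% of the *Ntng2* window and 66.4% of the *Sema7a* window. The sequences are a description of these genes, and the arrays carry no measurement of their promoters.

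Of the 43 guidance genes, 34 were detected on at least 1 array and could be tested, by 44 probes. In 18 genes a probe was detected on all 8 arrays. The 9 genes that no array detected were *Sema3c*, *Sema3e*, *Sema4f*, *Sema6c*, *Plxna1*, *Plxna3*, *Plxna4*, *Slit1* and *Unc5d*. A probe below detection gives an upper limit on the signal and does not show that the transcript is absent. Of the 44 tested probes, 20 had a higher and 24 a lower mean in *Cd151*-/- glomeruli. Of the 34 genes, each by its brightest probe, 17 were on either side, and the median log2 difference was 0.01 against -0.0019 over the 11227 genes tested. The median size of the difference, regardless of sign, was 0.20 against 0.21 over all genes tested, with a median SE of 0.30 and 0.27.

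No guidance probe passed Benjamini-Hochberg adjustment in limma (0 of 44, lowest adjusted p = 0.918), where 0.0334% of all probes tested did, and SAM, the permutation method of the study, called 0 of them at a false discovery rate below 0.2, where it called 0.608% of all probes tested. At an unadjusted limma p below 0.05, 3 of 44 guidance probes were lower in *Cd151*-/- glomeruli, against 2.61% of all probes tested, and 0 of 44 were higher, against 1.69%. The genotypes did not overlap for 1 guidance probe with higher levels in *Cd151*-/- mice, where 0.855% of all probes did so, and for 0 with lower levels, where 1.46% did. With 4 mice a group, the smallest p of the exact permutation test over the 70 relabelings is 0.0286.

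**Figure D1:**
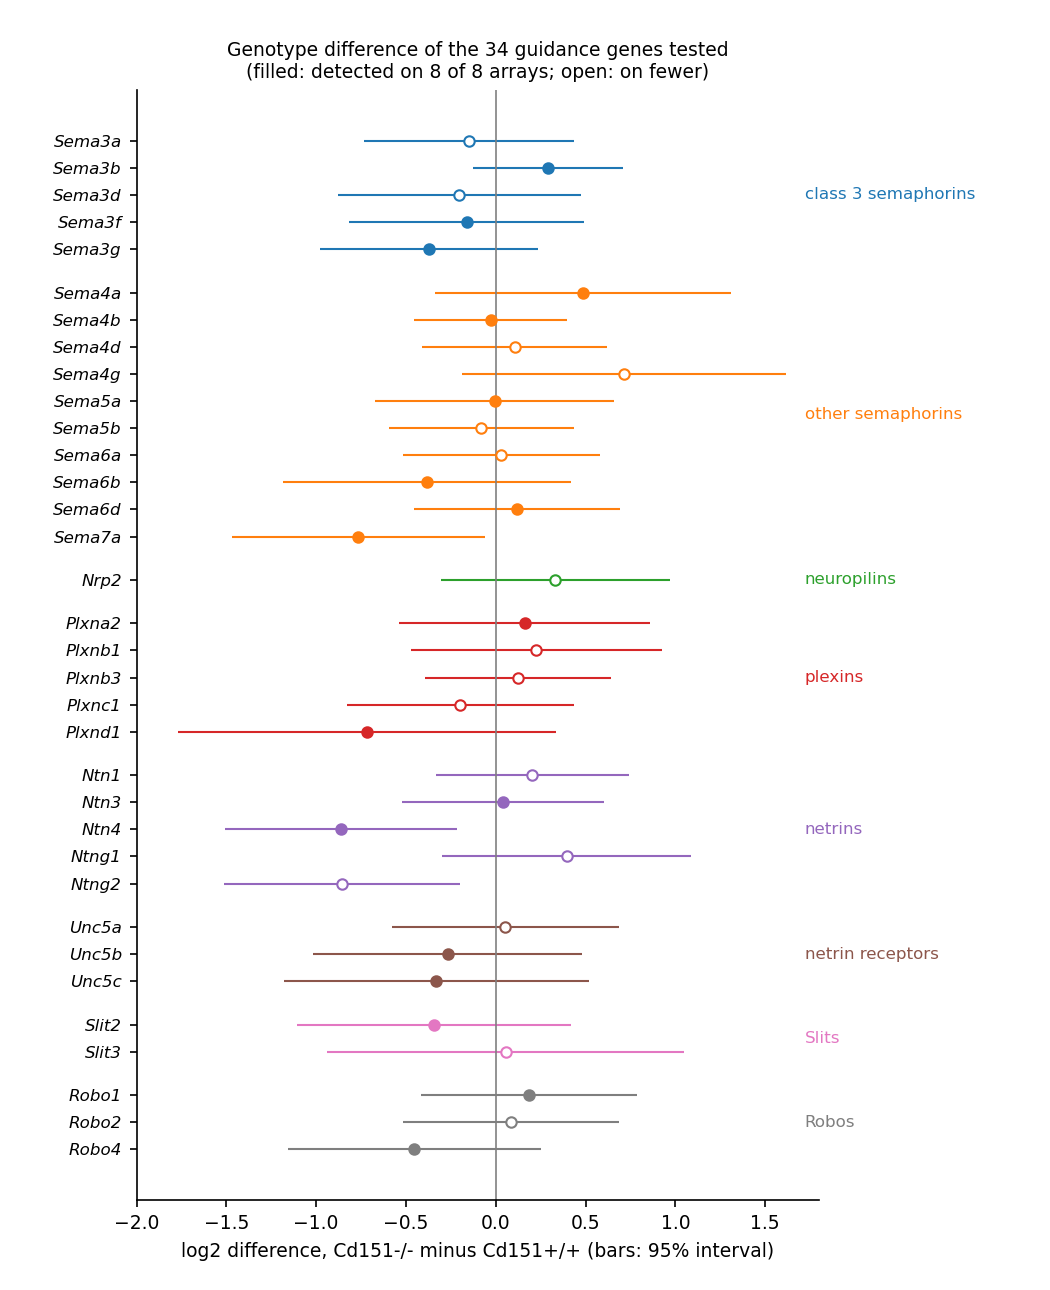
Log2 difference of normalised signal, *Cd151*-/- minus *Cd151*+/+ (horizontal axis), for the 34 guidance genes tested, by their brightest probe and grouped by role. Points are limma estimates over 4 mice per genotype, bars their 95% intervals, filled points genes detected on all 8 arrays and open points those detected on fewer. The estimates run from -0.86 to 0.71, and the intervals of *Ntn4*, *Ntng2* and *Sema7a*, but of no other gene, lie wholly on one side of 0.

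Among the netrins, the difference was on the lower side for netrin 4 and netrin G2. *Ntn4*, the laminin-binding netrin that the study went on to measure by other means, was detected on all 8 arrays. Its level was 8.94, 8.82, 8.84 and 7.89 in *Cd151*+/+ mice 1 to 4. In *Cd151*-/- mice 1 to 4 it was 7.25, 7.71, 7.91 and 8.17. All *Cd151*-/- mice lay below *Cd151*+/+ mice 1 to 3, and the groups overlapped through *Cd151*+/+ mouse 4 alone. The means were 8.62 ± 0.49 and 7.76 ± 0.39 (SD, n = 4), a log2 difference of -0.86 (SE 0.29, 95% interval -1.51 to -0.22), or 1.82-fold lower. The unadjusted p was 0.0136 and the adjusted p 0.918 (limma with Benjamini-Hochberg adjustment), and the exact permutation test gave p = 0.0857. Within the lower-background arrays the difference was -0.84 and within the higher-background arrays -0.88. With the background set as a block, limma gave an unadjusted p of 0.0035 and, with Benjamini-Hochberg adjustment, an adjusted p of 0.352. With 1 mouse left out, the difference ran from -1.10, without *Cd151*+/+ mouse 4, to -0.69, without *Cd151*-/- mouse 1.

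*Ntng2*, a membrane-anchored netrin that acts at synapses and not through Dcc or Unc5 receptors, was nearer to the limit of detection. All 4 *Cd151*+/+ mice but 2 of the *Cd151*-/- mice gave a detected signal. The level was 6.86, 5.76, 5.98 and 6.41 in *Cd151*+/+ mice 1 to 4. The *Cd151*-/- mice, in the same order, were at 5.46, 5.96, 5.01 and 5.15. The overlap came from *Cd151*-/- mouse 2, which lay above *Cd151*+/+ mouse 2. With means of 6.25 ± 0.49 and 5.39 ± 0.42 (SD, n = 4), the difference was -0.86 (SE 0.30, unadjusted limma p = 0.0154, exact permutation p = 0.0571). It was -1.23 in the lower-background and -0.48 in the higher-background arrays. A second probe for the gene, detected on as many arrays, gave -0.53 (unadjusted limma p = 0.0956, exact permutation p = 0.114).

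The other netrins had differences with intervals on both sides of 0. *Ntn3* was at 8.03, 8.19, 8.04 and 7.48 in *Cd151*+/+ and at 7.97, 7.68, 8.50 and 7.75 in *Cd151*-/- mice, a difference of 0.04 (95% interval -0.52 to 0.60). *Ntng1*, the other membrane-anchored netrin, was detected on 5 arrays by its brightest probe, with levels of 4.60 to 5.54 in *Cd151*+/+ and 4.86 to 6.17 in *Cd151*-/- mice. *Ntn1*, the best-known attractant of the family, was detected on 1 array, of a *Cd151*-/- mouse, so that no fold is given.

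Among the semaphorins, *Sema7a* had a lower mean in *Cd151*-/- glomeruli, and *Sema3b* alone had genotypes that did not overlap, by a small margin in the other direction. *Sema7a* encodes the semaphorin that is held to the membrane by a lipid anchor and binds plexin C1 and integrins. In *Cd151*+/+ mice 1 to 4 its level was 11.12, 10.53, 10.76 and 10.50. It was 9.64, 10.44, 10.59 and 9.20 in *Cd151*-/- mice 1 to 4. *Cd151*-/- mice 1, 2 and 4 lay below every *Cd151*+/+ mouse, mouse 2 only just, and mouse 3 lay among them. The means were 10.73 ± 0.29 and 9.97 ± 0.66 (SD, n = 4), a difference of -0.76 (SE 0.32, 95% interval -1.47 to -0.06, unadjusted limma p = 0.0365, exact permutation p = 0.0857), or 1.70-fold lower. Differences of -0.93 and -0.59 were found in the lower- and higher-background arrays. A dimmer probe, detected on 6 arrays, gave -0.59 (unadjusted limma p = 0.370, exact permutation p = 0.514), with levels from 5.05 to 7.89 and a mean of the higher-background arrays minus that of the lower of -1.35. *Cd151*-/- mouse 4, on a lower-background array, nonetheless had the lowest of the 8 levels of this probe. *Plxnc1*, which encodes the receptor of this semaphorin, was detected on 5 arrays, with levels of 5.30 to 6.29 in *Cd151*+/+ and 5.09 to 5.92 in *Cd151*-/- mice.

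*Sema3b*, a secreted class 3 semaphorin, was the single guidance gene with genotypes that did not overlap. Its level was 7.80, 7.52, 7.58 and 7.76 in *Cd151*+/+ mice 1 to 4. It was 8.04, 7.97, 7.83 and 7.99 in *Cd151*-/- mice. The highest *Cd151*+/+ mouse and the lowest *Cd151*-/- mouse differed by little against the spread within either group. The mean difference was 0.29 (SE 0.19, 95% interval -0.12 to 0.71), or 1.22-fold, with an unadjusted limma p of 0.150 and an exact permutation p of 0.0286, the smallest possible. It was 0.25 in the lower-background and 0.34 in the higher-background arrays. Another probe for *Sema3b*, detected on 5 arrays, went the other way, by -0.34, and the last, detected on 3, gave a difference of 0.20.

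**Figure D2:**
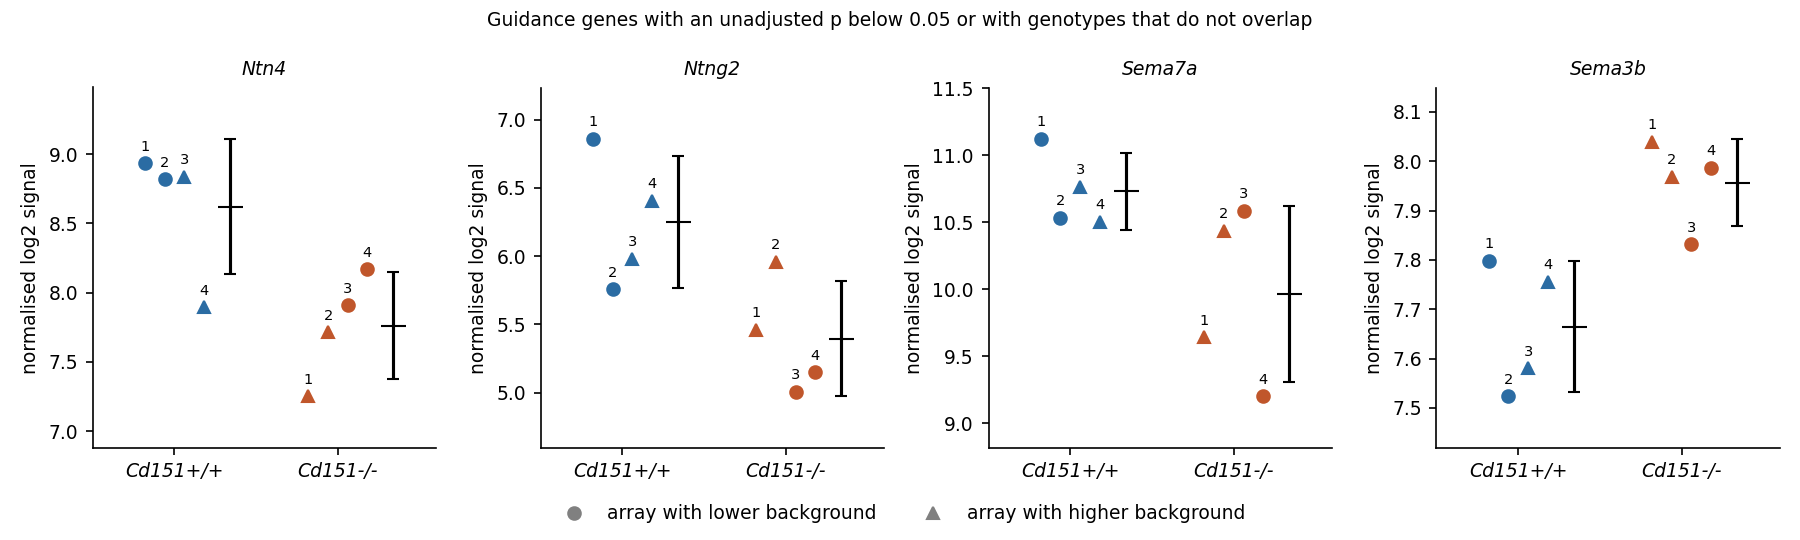
Normalised log2 signal (vertical axes, each on its own range) of *Ntn4*, *Ntng2*, *Sema7a* and *Sema3b* in each mouse, numbered within its genotype. Circles are arrays with lower and triangles arrays with higher background, and the bars give the mean ± SD of 4 mice. *Cd151*+/+ mouse 4 lies at 7.89 for *Ntn4*, among the *Cd151*-/- mice, and the *Sema3b* groups do not overlap.

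The other class 3 semaphorins measured on all 8 arrays had lower means in *Cd151*-/- glomeruli, with overlapping groups. *Sema3f*, which encodes a ligand of neuropilin 2, was at 12.09, 12.39, 12.44 and 11.24 in *Cd151*+/+ and at 11.90, 11.89, 12.26 and 11.47 in *Cd151*-/- mice, a difference of -0.16 (SE 0.30, 95% interval -0.82 to 0.49). *Sema3g*, known from endothelium and podocytes, was at 10.93, 11.12, 10.99 and 10.09 in *Cd151*+/+ and at 10.14, 10.44, 10.85 and 10.21 in *Cd151*-/- mice, a difference of -0.37 (SE 0.28, unadjusted limma p = 0.206, exact permutation p = 0.257). For *Sema3f* and *Sema3g*, as for *Ntn4*, *Cd151*+/+ mouse 4 had the lowest level of its genotype. *Sema3a*, the ligand through which the repulsion of growth cones was first described, was detected on 2 arrays, and *Sema3d* on 1. Of the 7 class 3 semaphorins listed, 5 were tested, of which 1 had a higher and 4 a lower mean, with a median difference of -0.16.

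Among the transmembrane semaphorins, *Sema4a* and *Sema4g* had higher means in *Cd151*-/- glomeruli, with groups that overlapped. *Sema4a*, which encodes a ligand of plexins on endothelial and immune cells, was at 11.21, 10.76, 11.54 and 11.85 in *Cd151*+/+ mice 1 to 4. In *Cd151*-/- mice 1 to 4 it was at 12.18, 11.10, 11.32 and 12.71. *Cd151*-/- mice 1 and 4 lay above all *Cd151*+/+ mice, and mice 2 and 3 lay among them. The difference was 0.49 (SE 0.37, 95% interval -0.34 to 1.31, unadjusted limma p = 0.219, exact permutation p = 0.343), with 1.03 in the lower-background and -0.05 in the higher-background arrays. It was 0.19 without *Cd151*-/- mouse 4 and 0.29 without *Cd151*+/+ mouse 2. *Sema4g*, named after its values were seen because it had the highest difference of the list, was detected in 2 *Cd151*+/+ mice and in every *Cd151*-/- mouse. It ran from 4.89 to 6.38 in *Cd151*+/+ mice and from 5.53 to 7.27 in *Cd151*-/- mice, a difference of 0.71 (SE 0.41, unadjusted limma p = 0.110, exact permutation p = 0.2). The difference of *Sema4g* was 1.40 in the lower-background and 0.03 in the higher-background arrays. *Cd151*-/- mouse 4 was again the highest, followed by *Cd151*+/+ mouse 4 at 6.38.

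The groups of the remaining semaphorins overlapped as well. *Sema5a*, which encodes a semaphorin with thrombospondin repeats, was at 11.40, 11.64, 12.27 and 11.95 in *Cd151*+/+ and at 11.94, 12.39, 11.80 and 11.10 in *Cd151*-/- mice, a difference within 0.01 of 0 (95% interval -0.67 to 0.66). *Sema4b* had the narrowest spread of those detected on all arrays, from 10.71 to 11.07 over both genotypes, with a 95% interval of the difference of -0.45 to 0.40. *Sema6b*, detected on all arrays, ran from 7.23 to 8.67 over the 8 mice, with a difference of -0.38 (SE 0.36) by its brightest probe and -0.39 by another. *Sema6d*, also detected on all arrays, ran from 7.04 to 7.98. *Sema4d*, which encodes the ligand of plexin B1, was detected on 7 arrays at 5.46 to 6.23, and *Sema5b* and *Sema6a* on 1 array each, both of *Cd151*-/- mice. Over the semaphorins outside class 3, 10 of 12 were tested and 5 lay on either side, with a median difference of 0.01.

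On the receptor side, plexin D1 had the largest difference, and its level, but not that difference, moved with the background of the array. *Plxnd1*, which encodes a plexin of endothelial cells and the receptor of the class 3 semaphorin of vessel patterning, was at 9.61, 9.71, 8.81 and 8.06 in *Cd151*+/+ mice 1 to 4. It was at 7.54, 7.93, 9.64 and 8.20 in *Cd151*-/- mice 1 to 4. Within the *Cd151*+/+ group the mice of the higher-background arrays were lower, and in the *Cd151*-/- group mouse 3 stood among the highest of all. The difference was -0.72 (SE 0.48, 95% interval -1.77 to 0.34, unadjusted limma p = 0.163, exact permutation p = 0.286), that is -0.73 in the lower- and -0.70 in the higher-background arrays, whereas over both genotypes the higher-background minus the lower-background set gave -1.20. With the set as a block the unadjusted p was 0.0406 and the adjusted p 0.433 (limma with Benjamini-Hochberg adjustment). It came to -1.15 without *Cd151*-/- mouse 3, with an unadjusted p below 0.05, and -0.45 without *Cd151*-/- mouse 1.

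*Plxna2*, which encodes a partner of the neuropilins, was at 10.31, 9.78, 9.49 and 8.95 in *Cd151*+/+ and at 9.60, 9.41, 10.38 and 9.79 in *Cd151*-/- mice, a difference of 0.16 (95% interval -0.54 to 0.86). *Plxnb1* was detected on 5 arrays at 4.67 to 6.18 and *Plxnb3* on 1. *Nrp2*, the neuropilin among the probes, was detected in 1 *Cd151*+/+ and 3 *Cd151*-/- mice. Its level was 4.64, 5.41, 5.02 and 5.60 in *Cd151*+/+ and 5.41, 4.99, 5.56 and 6.05 in *Cd151*-/- mice. The groups overlapped, and the difference of 0.33 (SE 0.29, unadjusted limma p = 0.275, exact permutation p = 0.4) was 0.78 in the lower-background and -0.11 in the higher-background arrays.

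The Unc5 receptors, through which netrins repel and of which Unc5b restrains vessel sprouting, gave no separation of the genotypes. *Unc5b* was at 8.43, 8.15, 7.95 and 7.33 in *Cd151*+/+ and at 8.05, 8.29, 7.56 and 6.89 in *Cd151*-/- mice, a difference of -0.27 (SE 0.34) that was -1.07 in the lower-background and 0.53 in the higher-background arrays. *Unc5c* was at 10.18, 10.46, 9.45 and 9.69 in *Cd151*+/+ and at 8.86, 9.65, 10.71 and 9.25 in *Cd151*-/- mice, a difference of -0.33 (SE 0.39). The direction for *Unc5b* thus differed between the sets of arrays, and that for *Unc5c* did not (-0.35 and -0.32). *Unc5a* was detected on 2 arrays.

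Among the Slits and Robos, the lowest difference was that of *Robo4*, the Robo of endothelial cells, by the 1 of its 3 probes that was detected on any array. It was at 12.05, 12.45, 11.46 and 11.39 in *Cd151*+/+ mice 1 to 4. It was at 11.03, 11.39, 12.10 and 11.01 in *Cd151*-/- mice 1 to 4. *Cd151*-/- mice 1 and 4 lay below all *Cd151*+/+ mice and mouse 3 lay above all but mouse 2 of them, and the difference was -0.45 (SE 0.32, 95% interval -1.16 to 0.25, unadjusted limma p = 0.184, exact permutation p = 0.229). *Robo1*, which encodes a Slit receptor of axons, was at 8.63, 8.44, 9.26 and 8.99 in *Cd151*+/+ and at 8.93, 9.62, 8.71 and 8.78 in *Cd151*-/- mice, a difference of 0.18 (SE 0.27). *Robo2*, which encodes a Slit receptor of the podocyte foot process, was detected on 4 arrays, 2 of each genotype, at 4.92 to 6.07.

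The Robo ligand *Slit2* was at 8.49, 7.80, 7.41 and 9.07 in *Cd151*+/+ and at 8.11, 7.92, 7.97 and 7.39 in *Cd151*-/- mice. The *Cd151*-/- mice lay within the range of the *Cd151*+/+ mice except for mouse 4, which lay just below it, and the difference was -0.34 (SE 0.35). *Slit3* was at 7.27, 6.68, 5.26 and 5.95 in *Cd151*+/+ and at 5.86, 5.85, 7.33 and 6.36 in *Cd151*-/- mice, a difference of 0.06 (SE 0.45, 95% interval -0.94 to 1.05). The 4 mice of the lower-background arrays had the 4 highest *Slit3* levels, and the higher-background minus the lower-background set gave -1.18.

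The mice also differed in markers of the cells in the isolate. Of the 6 endothelial markers (*Pecam1*, *Kdr*, *Emcn*, *Ehd3*, *Flt1* and *Tek*), all were tested, 1 had a higher and 5 a lower mean in *Cd151*-/- glomeruli, and 0 had an unadjusted limma p below 0.05. *Kdr* reached detection in 2 *Cd151*+/+ mice and in 0 *Cd151*-/- mice, and the other 5 markers on all 8 arrays. Their mean level was 11.00, 11.14, 10.97 and 10.86 in *Cd151*+/+ and 10.51, 10.94, 11.08 and 10.33 in *Cd151*-/- mice, and their summed linear signal ran from 32815 to 39306 and from 20663 to 39674. *Cd151*-/- mice 1 and 4 were thus the lowest of all for these markers, as they were for *Robo4*, and *Cd151*-/- mouse 3 was among the highest, as it was for *Robo4* and *Plxnd1*. The part of the endothelial share in the *Robo4*, *Plxnd1* and *Sema3g* values was not tested.

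Proximal tubule markers ran the other way. Of 7 chosen, 6 were tested (*Slc34a1*, *Lrp2*, *Slc5a2*, *Slc22a6*, *Aqp1* and *Kap*), all 6 with a higher mean in *Cd151*-/- samples and 1 (*Kap*, 1.38) with an unadjusted limma p below 0.05. *Lrp2* was detected in 0 *Cd151*+/+ and 2 *Cd151*-/- mice. The mean level was 9.05, 9.66, 10.00 and 10.19 in *Cd151*+/+ and 10.62, 9.92, 9.99 and 11.27 in *Cd151*-/- mice, and the summed linear signal ran from 14214 to 37763 and from 26260 to 45966. *Cd151*-/- mice 4 and 1, in that order, had the highest values, as for *Sema4a*. Markers of the loop, distal tubule and collecting duct did not follow. Of 5 chosen 4 were tested, 1 with a higher and 3 with a lower mean in *Cd151*-/- mice (median difference -0.33). Their mean level was highest in *Cd151*+/+ mouse 4 (11.60) and lowest in *Cd151*-/- mouse 4 (10.22). The part of tubular RNA in the *Sema4a* and *Sema4g* values was not tested. Of 6 podocyte markers chosen 3 were tested, all with a lower mean in *Cd151*-/- mice (for *Podxl* by a difference of -0.31 and for *Wt1* of -0.05) and 0 with an unadjusted p below 0.05. Of the 6 mesangial and smooth muscle markers tested, 2 had a higher and 4 a lower mean in *Cd151*-/- mice (median difference -0.20). The lowest difference was that of *Pdgfrb* (-0.74) and the highest that of *Acta2* (0.71). These 2 alone had an unadjusted limma p below 0.05, where 1.69% of all probes tested were higher and 2.61% lower. Of the 3 erythroid markers all had a lower mean, by up to -2.57 (median difference -0.69), and 2 were lower at that p. Of the 5 genes of the early response to dissociation all had a lower mean (median difference -0.97) and 1 a p below 0.05. Their mean level was 10.05, 9.73, 10.19 and 10.92 in *Cd151*+/+ and 9.80, 11.08, 8.65 and 7.87 in *Cd151*-/- mice. The part of these differences between isolates in the guidance gene values was not tested. Of the nerve and Schwann cell markers *Ngfr* was tested, with a difference of -0.0059, and *S100b* was not detected.

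**Figure D3:**
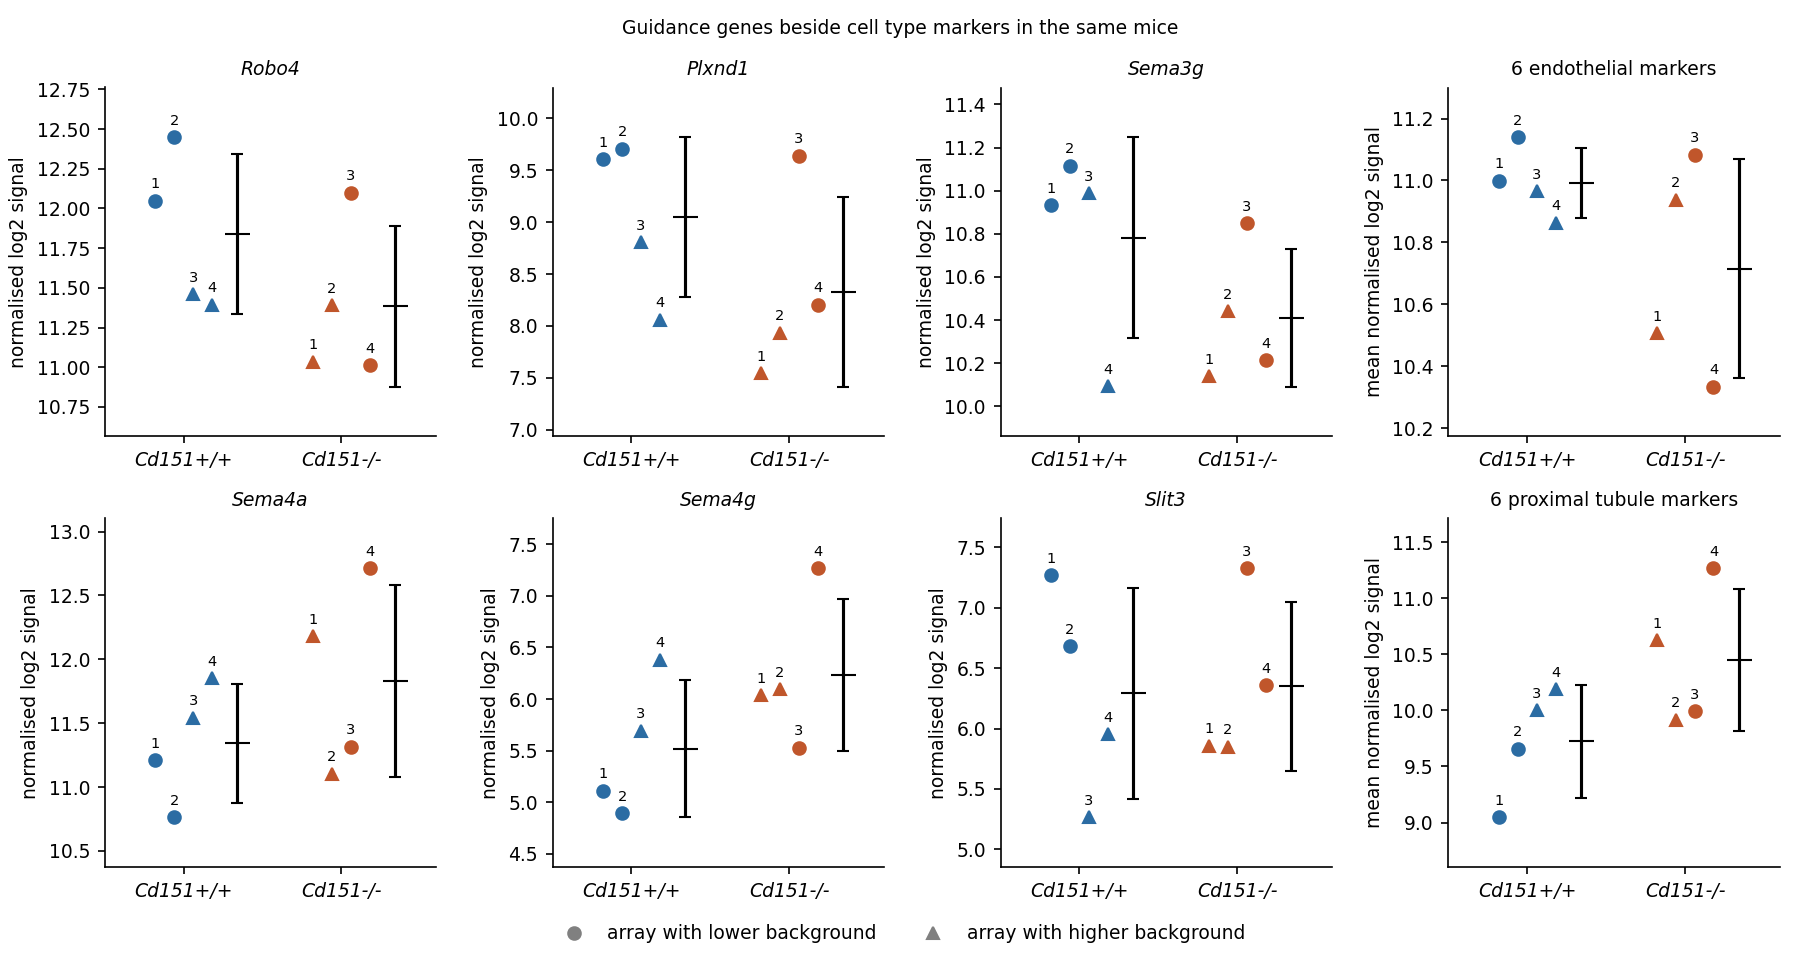
Normalised log2 signal (vertical axes, each on its own range) in each mouse for *Robo4*, *Plxnd1* and *Sema3g* beside the mean over 6 endothelial markers, and for *Sema4a*, *Sema4g* and *Slit3* beside the mean over 6 proximal tubule markers. Circles are arrays with lower and triangles arrays with higher background, numbers the mouse within its genotype and bars the mean ± SD of 4 mice. *Cd151*-/- mice 1 and 4 are the lowest for *Robo4* and the endothelial markers and the highest for *Sema4a* and the proximal tubule markers, and *Slit3* follows the background of the array.

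Genes that act with these families outside the member list were counted in the same fit. Of 20 further ligands and co-receptors 14 were tested, 5 with a higher and 9 with a lower mean in *Cd151*-/- glomeruli. *Gpc1*, which encodes a heparan sulphate proteoglycan that binds Slits, was at 13.01, 12.92, 13.02 and 12.75 in *Cd151*+/+ and at 12.09, 12.64, 12.57 and 11.81 in *Cd151*-/- mice. All 4 *Cd151*-/- mice lay below all 4 *Cd151*+/+ mice, with a difference of -0.64 (SE 0.24, 95% interval -1.17 to -0.12, unadjusted limma p = 0.0199, exact permutation p = 0.0286). *Adora2b*, which encodes an adenosine receptor described as a netrin partner and is named after its values were seen, was at 8.58, 8.23, 8.26 and 8.46 in *Cd151*+/+ and at 8.12, 8.14, 7.79 and 7.65 in *Cd151*-/- mice. Its groups did not overlap either, with a difference of -0.46 (SE 0.21, unadjusted limma p = 0.0525, exact permutation p = 0.0286). These were the 2 of 64 partner probes tested whose groups did not overlap, both lower, where 1.46% of all probes did so in that direction. Of 48 cytoplasmic effectors 31 were tested, 11 with a higher and 20 with a lower mean. *Rac1*, which encodes a GTPase that binds plexins and drives actin assembly, was at 10.94, 11.00, 10.58 and 10.61 in *Cd151*+/+ and at 9.73, 10.03, 10.81 and 9.61 in *Cd151*-/- mice. The *Cd151*-/- mice except mouse 3 lay below all *Cd151*+/+ mice, with a difference of -0.74 (SE 0.28, unadjusted limma p = 0.0238, exact permutation p = 0.0857). By probe, 3 of 64 partner probes had an unadjusted p below 0.05, all lower, against 2.61% of all probes. Beside *Gpc1* and *Rac1* this was 1 of 4 probes for *Gipc1* (-0.52), whose brightest probe gave -0.24. No partner gene passed Benjamini-Hochberg adjustment in limma.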

How the data were processed

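Labelled cRNA of each isolate was read on Illumina MouseRef-8 v1.1 arrays. The authors deposited the signal intensity of each probe, neither background-subtracted nor normalised, and a detection p-value, the share of negative-control probes at least as bright. Groups came from the sample labels.

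In R 4.3.3 with limma 3.58.1, each array's background was inferred from the deposited detection p-value column, and intensity values were corrected and quantile-normalised with neqc (offset 16), fitted with lmFit and eBayes over the 14967 probes that any array detected (p-value at most 0.05), and adjusted by Benjamini-Hochberg over them. Permutation tests were two-sided and exact. SAM was written out in R with the 70 relabelings. The procedures were tested on simulated data. The number of arrays and the signal over background limit the precision. The columns name no slide.

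Members, lists and the split of the arrays by background were chosen with earlier results of these data known. A gene with several probes is given by its brightest probe over the 8 mice. Values per mouse are given for *Ntn4*, for members with an unadjusted p below 0.05 or groups that did not overlap, and for up to 2 members with the highest mean in each role. A bound for an undetected group was set against the lowest detected signal per array. The alternatives were an offset of 50, signals without normexp, a cubic spline (15 quantiles) or the 75th percentile in place of quantile normalisation, testing all probes or those detected on all 4 arrays of a genotype, the mouse number or the background set as a block, array weights, a robust and trended variance, leaving out each mouse, other probes and SAM. All 43 symbols matched the RefSeq table (GRCm38.p6). The real-time PCR and protein experiments were not analysed here. The results of some marker genes are not reported here.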

Additional observations from a re-analysis of the deposited data

Results flagged for a closer look

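The *Ntn4* level of *Cd151*+/+ mouse 4, 7.89, lay apart from the other 3 *Cd151*+/+ mice (8.82 to 8.94): the gap to the nearest of them was 0.89 of the range of the group, above Dixon's critical value at 95% for 4 samples. It was 1 of 36 groups examined, and chance alone singles out about 1 in 20 groups. Without this mouse the log2 difference of *Ntn4* was -1.10, against -0.86 with it. Leaving out *Cd151*-/- mouse 1 instead moved the difference the other way, to -0.69.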

How the results depend on the processing

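Under every alternative run, 0 guidance probes passed adjustment. *Ntn4* stayed lower in *Cd151*-/- glomeruli under all of them (log2 difference -1.23 to -0.67, unadjusted p 0.000467 to 0.0466, adjusted p 0.0885 to 1.00, limma with Benjamini-Hochberg adjustment). The median difference of the guidance genes was -0.18 with scaling to the 75th percentile, where the median of all probes was -0.09, and -0.13 with array weights. Guidance probes higher at an unadjusted p below 0.05 were 1 without the detection filter and 2 with array weights, and lower ones 10 with array weights. Partner probes at that p were 6 without the filter, where undetected partner probes were tested as well, 5 with the background set as a block and 19 with array weights. Array weights called 32.2% of all probes at that p, against 4.3%, the block by background 11.3% and the fit without the filter 4.26%. Leaving out 1 mouse gave 0 to 1 higher and 1 to 8 lower guidance probes (1 without *Cd151*+/+ mouse 1, where 2.36% of all probes were at that p in either direction, and 8 without *Cd151*-/- mouse 3, where 9.41% were). Partner probes at that p were then 0 to 5. They were 0 without *Cd151*-/- mouse 1 or 4, where 2.36% and 3.19% of all probes were at that p. They were 1 without *Cd151*+/+ mouse 1 or 2 (2.36% and 2.69% of all probes) and 5 without *Cd151*+/+ mouse 4 (6.68%). The causes were not tested.

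Genes with small differences changed sign in places. *Sema5a* was at 0.0622 with the cubic spline, 0.30 with array weights and -0.20 to 0.23 with 1 mouse left out. *Slit3* was at -0.0085 with the 75th percentile, -0.59 with array weights and -0.29 to 0.38 with 1 mouse left out. *Ntn3* was at -0.10 with array weights and -0.13 to 0.14 with 1 mouse left out. *Plxna2* was at -0.19 with array weights and -0.0666 to 0.38 with 1 mouse left out. *Nrp2* was at -0.0698 with the 75th percentile, and with 1 mouse left out *Robo1* was at -0.0205 to 0.33 and *Unc5b* at -0.48 to 0.0032. Another probe for *Sema3b* gave -0.34. The brightest *Sema3b* probe had an unadjusted limma p of 0.0193 without the detection filter, where it was the 1 higher guidance probe. That p was 0.0689 without normexp and 0.229 with the 75th percentile. *Ntng2* lost its unadjusted p below 0.05 without *Cd151*+/+ mouse 1, and *Sema7a* without *Cd151*+/+ mouse 1 or 3 or *Cd151*-/- mouse 1 or 4 (-0.51 without the last). Without *Cd151*-/- mouse 3, *Plxnd1* (-1.15), *Robo4* (-0.69) and *Unc5c* (-0.69) came to that p, and without *Cd151*+/+ mouse 4 *Sema3g* (-0.60). With array weights *Plxnd1* was at -1.45. Other single mice moved *Slit2* (-0.05 and -0.60 when *Cd151*+/+ mouse 4 or 3 was left out, and -0.19 for *Cd151*-/- mouse 4), *Unc5c* (-0.08 without *Cd151*-/- mouse 1), *Robo4* (-0.25 without *Cd151*+/+ mouse 2) and *Nrp2* (0.15 without *Cd151*-/- mouse 4).

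The labels number the mice within each genotype and state no pairing. Deviations of same-numbered mice from their group means had correlations across probes of -0.58, -0.40, -0.53 and -0.0086. These mice lie in opposite background sets, and all pairs across sets and genotypes gave -0.65 to -0.0086, so that the correlations cannot test pairing. With the number as a replicate block, 1 guidance probe was higher and 2 were lower at an unadjusted p below 0.05, *Sema7a* being no longer among them, where 2.81% of all probes were at that p in either direction, and the unadjusted p of *Ntn4* was 0.0432. A level below detection is a limit set by the background of the array, so small differences of genes detected on few arrays could not be measured.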
